A study of Mus musculus with 18 samples.

Results

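The proteasome genes described here are the 37 genes, of 15644 in the gene count table, whose symbols begin with PSMA, PSMB, PSMC or PSMD followed by a digit, without the immunoproteasome subunits PSMB8, PSMB9 and PSMB10. They comprise the 14 subunits of the core particle (7 alpha and 7 beta), 17 subunits of the regulatory particle (6 ATPases and 3 other subunits of its base, and 8 subunits of its lid), 3 chaperones that help to assemble the base (PSMD5, PSMD9 and PSMD10), 2 core subunits made mainly in other tissues (PSMA8 of the testis and PSMB11 of the thymus) and PSMC3IP, a recombination factor that bears a proteasome name but is no subunit. The counts came from RNA-seq of the hippocampus of 18 C57/B6 mice, to ask how the transcriptome differs with age and with 3TC (lamivudine), a nucleoside inhibitor of reverse transcriptase. Older 3TC mice were 20 months old and had received 3TC in their drinking water at 2 mg/mL for 6 weeks, older mice were 20 months old on untreated water, and younger mice were 9 months old on untreated water. Each group held 3 males and 3 females, each library came from a separate animal, and the labels give no genetic manipulation in any group. Because whole tissue was sequenced, fewer cells of a type and less RNA per cell cannot be told apart.

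The proteasome is the main protease of the cytosol and the nucleus. Its core particle is a barrel whose outer alpha rings gate the entry and whose inner beta rings carry the proteolytic sites. The regulatory particle caps the barrel, where the lid and base bind ubiquitin-tagged proteins, PSMD14 removes the ubiquitin and a ring of ATPases unfolds the chain and threads it into the core. In mammalian cells the genes of the subunits are known to be induced together by the transcription factor NFE2L1 (Nrf1) when proteasomes are inhibited, and in neurons the proteasome is known for its part in synaptic protein turnover.

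The sequences just upstream of the genes are shown because NFE2L1 and NFE2L2 are known to bind antioxidant response elements. The core of these elements is TGACNNNGC (N is any base). The part of these sequences in the levels across mice was not tested. The 250 bases before the start of the RefSeq gene model (GRCm38.p6) were available for 30 of the 37 genes, 25 of them core or regulatory subunits, and were searched on both strands. A gene with more than 1 annotated start, such as PSMA6 or PSMC2, counted if any of its windows held the motif. TGACNNNGC occurred in 4 of the 25 subunit genes (16%), against 13.6% of the 12160 genes in the table with a promoter. These were PSMB5 (chr14:54617996-54618245 on the minus strand), PSMB6 (chr11:70525107-70525356 on the plus strand), PSMC6 (chr14:45329574-45329823 on the plus strand) and PSMD12 (chr11:107479278-107479527 on the plus strand), and they are printed 5′ to 3′ with the promoter of PSMB11 (chr14:54625060-54625309 on the plus strand), which lies near PSMB5 and held no such match. Capitals mark TGACNNNGC and the other motifs searched, which were CCAAT (the box bound by NF-Y), CCGGAAG (the core of sites for ETS factors), GGGCGG (the box bound by SP factors) and GCATGCGC (a site type of nuclear respiratory factor), or the reverse complement of each. In the promoters of the 30 genes, 1 pair of matches of different motifs overlapped, TGACNNNGC and GGGCGG in PSMD9, and none did in those printed.
PSMB5: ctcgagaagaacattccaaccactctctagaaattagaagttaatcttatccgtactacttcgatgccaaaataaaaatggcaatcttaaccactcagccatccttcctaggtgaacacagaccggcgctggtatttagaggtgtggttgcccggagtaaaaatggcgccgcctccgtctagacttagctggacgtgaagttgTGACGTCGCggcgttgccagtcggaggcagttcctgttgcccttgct
PSMB6: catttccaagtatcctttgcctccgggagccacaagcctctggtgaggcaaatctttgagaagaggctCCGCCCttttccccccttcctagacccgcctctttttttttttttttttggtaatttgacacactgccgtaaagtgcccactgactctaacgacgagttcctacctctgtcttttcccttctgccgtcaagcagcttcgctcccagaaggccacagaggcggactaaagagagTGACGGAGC
PSMC6: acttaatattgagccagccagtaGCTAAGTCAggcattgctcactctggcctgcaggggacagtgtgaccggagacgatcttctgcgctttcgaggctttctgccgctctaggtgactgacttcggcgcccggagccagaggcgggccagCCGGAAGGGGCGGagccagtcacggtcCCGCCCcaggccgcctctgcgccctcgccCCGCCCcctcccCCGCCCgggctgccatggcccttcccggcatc
PSMD12: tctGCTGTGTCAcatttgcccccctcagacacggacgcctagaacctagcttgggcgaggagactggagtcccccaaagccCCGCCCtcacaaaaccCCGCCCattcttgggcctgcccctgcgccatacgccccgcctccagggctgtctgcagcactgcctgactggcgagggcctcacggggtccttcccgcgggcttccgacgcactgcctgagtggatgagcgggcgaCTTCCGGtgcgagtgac
PSMB11: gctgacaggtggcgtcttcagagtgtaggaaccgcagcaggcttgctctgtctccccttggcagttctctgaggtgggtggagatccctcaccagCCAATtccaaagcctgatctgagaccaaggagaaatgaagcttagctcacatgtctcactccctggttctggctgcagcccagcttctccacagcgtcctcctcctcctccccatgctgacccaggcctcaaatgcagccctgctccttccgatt
The TGACNNNGC match began 47 bases before the gene's start in PSMB5, 9 in PSMB6, 227 in PSMC6 and 247 in PSMD12. CCGGAAG occurred in 9 of the 25 subunit genes (36%), against 12.2% of all genes with a promoter. PSMA6 held it only in the window at chr12:55398575-55398824. The shares were close for CCAAT (10 of 25, 40%, against 39%) and GGGCGG (14 of 25, 56%, against 57.7%), and GCATGCGC occurred in 2 of 25 (8%, against 4.16%). These matches describe the letters in these windows only, and binding was not measured.

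Total counts per mouse were 34.6 to 49.1 M, and transposable elements (TEs) took 63.4 to 85.7% of them, so that 6.01 to 13.0 M counts fell in genes. All 37 genes passed the filter of a mean count above 10, and the counts of the 31 core and regulatory subunits ran from 154 to 3009 per mouse. The 12 markers of hippocampal neurons were all measured, with a mean log2 level between 2.39 and 3.77 in the 18 mice. The lowest value belonged to a female older 3TC mouse (DFO4) that also had the highest level of 10 thalamus markers (5.45, against 3.06 to 3.36 in the other older 3TC mice, with older mice at 3.08 to 3.43 and younger mice at 3.14 to 4.21) and of 8 oligodendrocyte markers, and values that change without it are given below. Levels are CPM, read counts scaled to the TMM-normalized total of genes and TEs in each library, and log2 levels add a prior count of 2.

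The subunits of the proteasome were well expressed in every mouse. Per kilobase of annotated exon, the median of the 31 subunits was 5.31 CPM, and PSMC5, an ATPase of the base, was highest with 22.1 ± 4.35 CPM per kb (SD, n = 18 mice) and PSMD11, which clamps the lid to the core, lowest with 2.37 ± 0.292, a ratio of 9.33. All 31 subunits stood at percentile 66.7 (PSMD11) to 98.9 (PSMC5) of all genes on this scale. Among the proteolytic subunits, PSMB5 (chymotrypsin-like) was second highest of all with 16.5 ± 3.48, ahead of PSMB6 (caspase-like, 6.41 ± 1.07) and PSMB7 (trypsin-like, 5.31 ± 1.0002). The ATPases of the base had a median of 8.98, the other base subunits 6.03, the beta subunits 6.30, the alpha subunits 4.65 and the lid subunits 4.57. The chaperones were lower, with 2.05 for PSMD10, 1.57 for PSMD5 and 0.966 for PSMD9. The testis subunit PSMA8 (0.6251 ± 0.156) and the thymus subunit PSMB11 (0.755 ± 0.206) stood at percentiles 7.11 and 12.2, and PSMC3IP reached 1.08 ± 0.222.

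**Figure D1:**
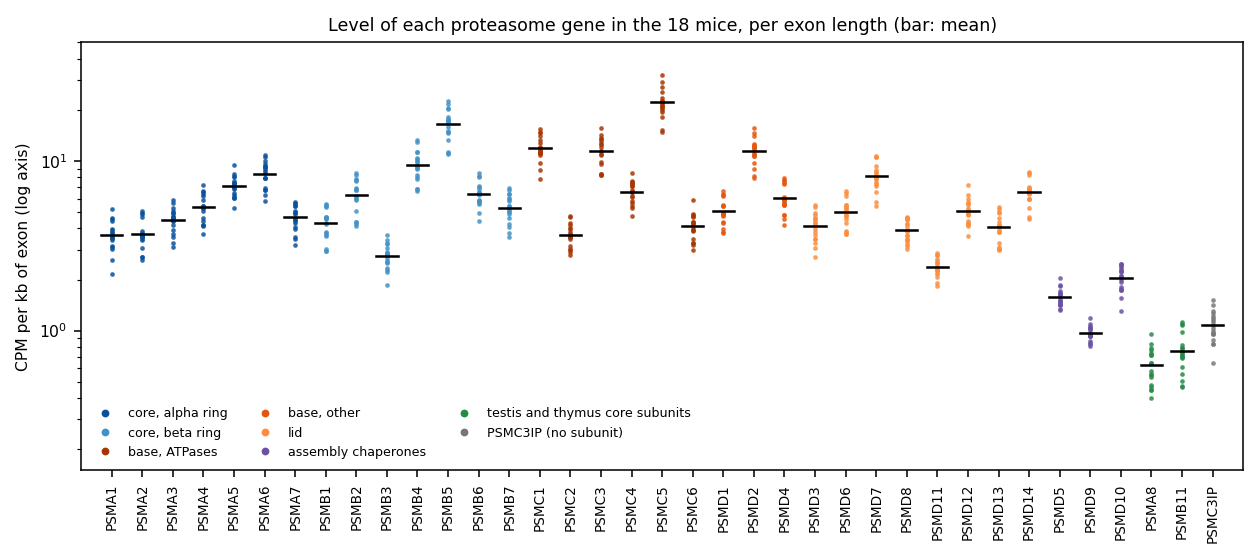
Level of the 37 proteasome genes in CPM per kb of exon on a log axis, a point for each of the 18 mice and a bar for their mean, coloured by class. The subunits lie mostly between 2.37 (PSMD11) and 22.1 (PSMC5) on average, above the chaperones, PSMA8, PSMB11 and PSMC3IP.

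This order depends on the length used. Divided by the length of the principal transcript instead of all annotated exons, PSMC5 remained highest (23.4 CPM per kb), PSMB7 and PSMB6 came to 15.7 and 15.04, close to PSMB5 (16.5), PSMA7 ranked 7 of 31 where it had ranked 20, and the lowest subunit was PSMA2 (4.68). Some counts may also be shared with other genes: 5 of the 37 genes had over 10% of their 100-base stretches in common with another annotated gene (PSMA3, PSMA5, PSMB5, PSMC3IP and PSMD9, 13.4 to 23.9%), and the exons of 10 overlapped those of another gene. How the authors' counting used strand is not given in the sources used here, so reads of PSMD9 and of the opposite-strand gene Gm26745, for example, cannot be told apart.

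Core and regulatory particle moved in step from mouse to mouse. The mean log2 level of the 14 core subunits was 3.21 to 3.96 in older 3TC, 3.17 to 3.99 in older and 3.26 to 4.01 in younger mice, and that of the 17 regulatory subunits was 3.87 to 4.56 in older 3TC, 3.84 to 4.58 in older and 3.94 to 4.64 in younger mice. Their difference varied far less. Core minus regulatory was -0.64 ± 0.05 (SD, n = 6) in older 3TC mice, -0.60 ± 0.04 in older mice and -0.62 ± 0.04 in younger mice, and it lay between -0.73 and -0.56 in all 18 mice. The ranges of the 3 groups overlapped. The SD of this difference over the 18 mice was 0.0446, against 0.254 for the core level and 0.234 for the regulatory level. Scaling shared by a library cancels in such a difference, whichever gene groups are compared. Like the 2 particles, the 75 ribosomal proteins and 59 respiratory chain subunits were lowest in CFO2 (3.77 and 3.16) and highest in YM1 (4.76 and 4.13). Differences between other gene groups were not computed, so the small SD cannot be called particular to the proteasome. Per kilobase of exon, core minus regulatory was -0.10, so the 2 particles stood closer on that scale.

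Gene by gene, the level of a subunit followed the mean of the other 30, after subtracting group means, with a Pearson r over the 18 mice of 0.830 (PSMB3) to 0.984 (PSMD1, the large scaffold of the base), and 26 of the 31 were above 0.9. The assembly chaperones followed it less closely (PSMD5 0.795, PSMD9 0.497, PSMD10 0.347). PSMB11, PSMA8 and PSMC3IP ran the other way, at -0.897, -0.846 and -0.656. This likeness was not particular to proteasome genes, since 1465 of 15595 genes outside the set (9.39%) had an r above 0.9 with the mean of the subunits. Among the 10 most alike were EIF4B and EIF4A2 (translation initiation), CCT7 and CCT8 (a cytosolic chaperonin), PRDX2, PITPNA, VCP (an ATPase that hands unfolded ubiquitin-tagged proteins to the proteasome) and STMN2 (0.984). These values are descriptions over 18 libraries that differ in depth and in their share of TE counts.

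That share moved with the levels in each group. Among older 3TC mice, TEs took 65.9% of the counts in DFO5 and 85.1% in DMO5, and all 31 subunits were higher in DFO5, by a median of 0.75 on the log2 scale. The 2 extreme older mice, CMO6 (68.3%) and CFO2 (85.7%), differed by a median of 0.79, and the 2 extreme younger mice, YM1 (63.4%) and YF3 (83.6%), by 0.70, each with all 31 subunits higher in the mouse with the lower share. PSMA8, PSMB11 and PSMC3IP were lower in the mouse with the lower share in every group, with log2 differences for PSMB11 of -1.22 in older 3TC, -1.24 in older and -1.08 in younger mice. TE counts are in the total to which CPM were scaled, so these differences hold that scaling too. As a share of gene counts alone, the 31 subunits took 0.242% in DFO5 and 0.209% in DMO5. The share was 0.258% in CMO6 and 0.208% in CFO2, and 0.256% in YM1 and 0.208% in YF3. On this measure the mice of each pair stood closer than in CPM. In log2 CPM, the subunits thus differed between mice of a group by more than the median differences between groups given next. The part of the TE share in the results was not tested beyond the fits with it as a term.

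**Figure D2:**
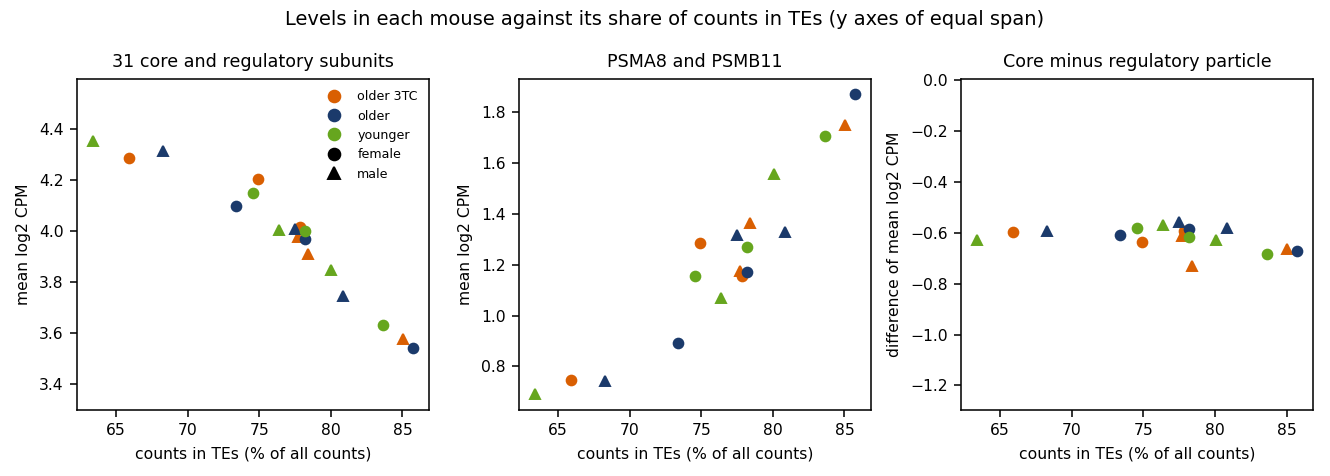
Mean log2 CPM of the 31 core and regulatory subunits, of PSMA8 and PSMB11, and the core minus regulatory difference, each against the percent of counts in TEs, with 1 point per mouse. Subunit levels are lower and PSMA8 and PSMB11 higher in mice with more TE counts, in all 3 groups, while the core minus regulatory difference stays between -0.73 and -0.56.

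With 3TC, no proteasome gene passed the test. In edgeR's quasi-likelihood test with Benjamini-Hochberg adjustment over 16774 genes and TEs, 0 of 37 were called between older 3TC and older mice (0% of all genes and TEs called), and DESeq2 also called 0. At an unadjusted p under 0.05 there was 1 of 37, PSMD12, against 1.16% of all genes and TEs. The fold changes were above 0 in 8 of 14 core and 14 of 17 regulatory subunits (53.4% of all genes), with medians of 0.04 and 0.05 on the log2 scale, against 0.01 over all genes. The counts turned on single mice: without DMO5, the mouse with the highest TE share, 32 of the 37 genes were above 0, and without CFO2 15 of 37. Without DFO4, 7 of 14 core and 12 of 17 regulatory subunits were above 0, with medians of 0.00 and 0.02. The ranges of the 2 groups overlapped in all 37 genes, with 0 of 37 apart (0.0477% of all genes and TEs). The 95% intervals of the 31 fold changes reached from -0.47 to 0.55 at their widest, and 30 of them included 0.

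PSMD12, the lid subunit Rpn5, had 11.2, 14.5 and 19.002 CPM (lowest, median and highest of 6) in older 3TC mice, against 9.57, 11.6 and 14.8 CPM in older mice and 10.9, 13.0 and 16.7 CPM in younger mice. The ranges overlapped, and the 3 highest older 3TC values were those of the 3 females (15.1, 15.9 and 19.002). Its log2 fold change of older 3TC over older mice was 0.29 ± 0.13 (SE) at an unadjusted p = 0.0350 and an adjusted p = 0.99995 (edgeR). Without DFO4, the mouse with high thalamus markers, it was 0.20, and without DMO5 0.35. It was no longer at an unadjusted p under 0.05 without DFO4, DFO5, DFO8, CMO1, CMO3, CFO2 or CFO3, with DESeq2, with scaling to total counts alone or with sex and a replicate block. With the TE share as a term it was 0.27, again at an unadjusted p under 0.05 (adjusted p = 0.99988). Its promoter is among those printed above.

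The other subunits that carry out defined steps differed less. PSMB5 had 10.1, 13.8 and 18.5 CPM in older 3TC mice, against 10.1, 15.3 and 19.5 in older mice and 9.87, 15.8 and 20.3 in younger mice, the lowest fold change of a subunit with 3TC (log2 -0.11 ± 0.17). PSMB6 (8.24, 12.2 and 15.2 CPM in older 3TC mice, 9.19, 11.6 and 15.9 in older and 10.5, 11.4 and 15.01 in younger mice) had a log2 fold change of 0.00 ± 0.14. PSMB7 had 14.04, 18.9 and 21.8 CPM in older 3TC mice, 12.2, 17.97 and 23.1 in older and 12.9, 17.9 and 23.6 in younger mice. The 3 proteolytic subunits thus spanned nearly the same ranges in all groups. PSMD14, the deubiquitinase of the lid, had 13.3, 19.3 and 23.2 CPM in older 3TC mice, 12.9, 18.7 and 24.0 in older and 14.9, 17.4 and 24.2 in younger mice. PSMC5 had 21.2, 31.4 and 44.5 CPM in older 3TC mice, against 20.8, 28.8 and 38.1 in older and 25.3, 29.2 and 40.7 in younger mice, and PSMC1, another ATPase of the base, had 15.2, 24.1 and 29.8 CPM in older 3TC, 17.1, 21.6 and 27.2 in older and 18.9, 21.9 and 28.7 in younger mice. They had the highest fold changes with 3TC among the ATPases (0.16 ± 0.16 and 0.15 ± 0.14). Of the alpha ring, PSMA4 (9.997, 13.2 and 17.2 CPM in older 3TC, 8.84, 12.4 and 15.7 in older and 9.76, 12.6 and 15.6 in younger mice) was highest, at 0.11 ± 0.15. PSMD4, a ubiquitin receptor, had 12.8, 16.2 and 21.5 CPM in older 3TC, 11.7, 15.9 and 20.8 in older and 13.4, 16.9 and 22.2 CPM in younger mice. Each of these differences was smaller than the spread within a group.

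The remaining subunits with small p in one of the comparisons, or at an end of the range of levels, also overlapped between the groups. PSMA2 had 9.53, 13.5 and 18.6 CPM in older 3TC, 9.91, 13.1 and 18.2 CPM in older and 10.04, 13.2 and 17.2 CPM in younger mice. PSMA6 had 7.18, 9.80 and 13.1 CPM in older 3TC, 7.81, 10.6 and 12.4 CPM in older and 8.34, 11.2 and 13.4 CPM in younger mice. In both alpha subunits the group ranges overlapped widely. PSMB2 had 5.25, 7.64 and 9.96 CPM in older 3TC, 5.14, 7.86 and 9.37 CPM in older and 4.95, 7.72 and 10.2 CPM in younger mice. PSMB4 had 13.02, 18.7 and 25.9 CPM in older 3TC, 13.4, 17.4 and 25.2 CPM in older and 13.3, 18.9 and 22.1 CPM in younger mice, and like PSMB2 it showed no group apart from the others. PSMD1 had 27.1, 37.8 and 48.1 CPM in older 3TC, 27.8, 35.6 and 46.3 CPM in older and 28.99, 34.8 and 45.9 CPM in younger mice. PSMD11, the lowest subunit per length, had 12.2, 14.8 and 18.2 CPM in older 3TC, 11.7, 15.6 and 17.8 CPM in older and 13.1, 14.9 and 17.9 CPM in younger mice, the narrowest relative spread of the 31 (CV 12.3% over the 18 mice, where the 31 subunits had 12.3 to 22.5%).

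The assembly chaperones of the base overlapped between the groups as well. PSMD5 had 9.4986, 10.6 and 13.5 CPM in older 3TC, 9.69, 10.9 and 13.2 CPM in older and 10.3, 11.7 and 14.7 CPM in younger mice. PSMD9 had 6.25, 6.81 and 7.52 CPM in older 3TC, 5.87, 6.43 and 7.93 CPM in older and 6.70, 7.27 and 8.61 CPM in younger mice. PSMD10 had 1.90, 3.25 and 3.62 CPM in older 3TC, 2.56, 2.997 and 3.64 CPM in older and 2.53, 3.04 and 3.37 CPM in younger mice.

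PSMA8, PSMB11 and PSMC3IP had few counts in every mouse. PSMA8 had 1.19, 1.41 and 2.08 CPM in older 3TC, 1.11, 1.70 and 2.39 CPM in older and 1.003, 1.47 and 1.97 CPM in younger mice. PSMB11 had 2.22, 3.48 and 5.25 CPM in older 3TC, 2.27, 3.12 and 5.41 CPM in older and 2.42, 3.66 and 5.20 CPM in younger mice. PSMC3IP had 1.51, 1.74 and 2.58 CPM in older 3TC, 1.51, 1.97 and 2.77 CPM in older and 1.17, 2.07 and 2.36 CPM in younger mice. In each of them the highest value of older 3TC and of older mice belonged to DMO5 and CFO2, the mice with the highest TE shares of their groups. The counts behind these 3 genes were 45 to 187 per mouse, and their log2 fold changes with 3TC were -0.08 ± 0.22 for PSMA8, 0.10 ± 0.22 for PSMB11 and -0.14 ± 0.19 for PSMC3IP.

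**Figure D3:**
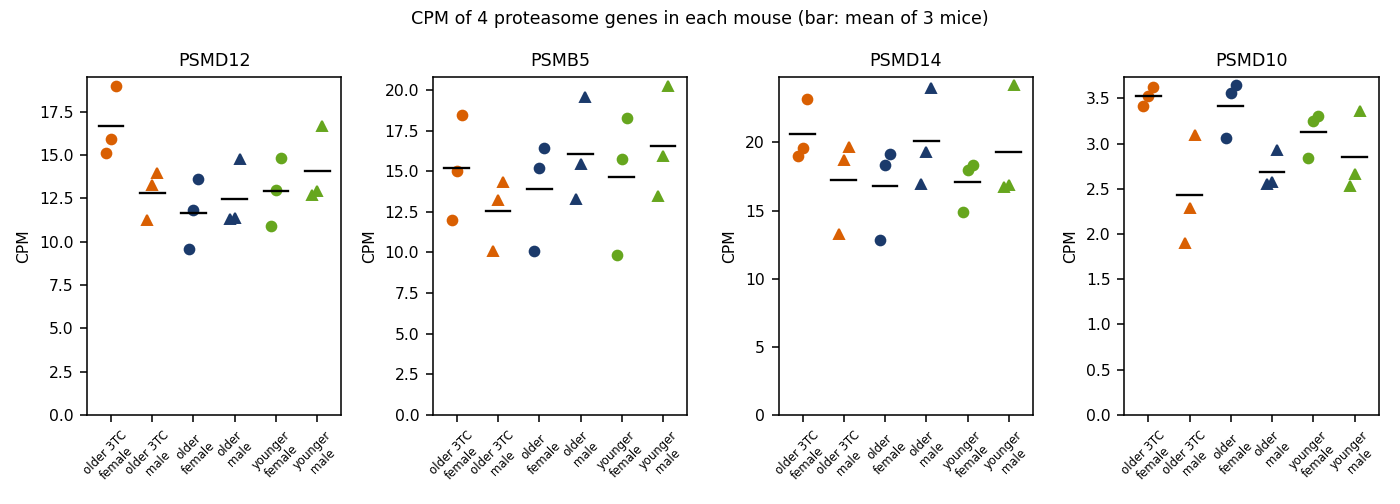
CPM of PSMD12, PSMB5, PSMD14 and PSMD10 in each mouse by group and sex, with a bar for the mean of 3 mice. Among older 3TC mice PSMD12 is highest in the 3 females (15.1, 15.9 and 19.002), the groups overlap in each gene, and PSMD10 is mostly higher in females than in males.

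With age, too, no proteasome gene passed the test. Between older and younger mice 0 of 37 were called by edgeR (0.0119% of all genes and TEs called) and 0 by DESeq2, and 0 of 37 had an unadjusted p under 0.05 (0.399% of all genes and TEs). In 0 of 37 were the ranges of the groups apart (0.0537% of all genes and TEs). Fold changes were above 0 in 2 of 14 core subunits, PSMA3 and PSMB6, and in 4 of 17 regulatory subunits (46.4% of all genes), with medians of -0.03 and -0.06 on the log2 scale, against -0.01 over all genes. The smallest p among the subunits was again that of PSMD12 (log2 -0.16 ± 0.13, edgeR's adjusted p = 0.99996), followed by PSMD4 (-0.15 ± 0.15). PSMA5 (7.94, 9.17 and 11.0 CPM in older 3TC, 6.96, 9.82 and 10.6 in older and 8.06, 9.48 and 12.6 in younger mice) had -0.08 ± 0.12, and PSMC3 (21.7, 30.2 and 35.8 in older 3TC, 21.7, 29.1 and 36.9 in older and 21.5, 31.3 and 40.6 in younger mice) had -0.10 ± 0.17. The count above 0 was 9 of 37 genes with all mice, 3 without YF3 and 23 without YM1, the younger mice with the highest and the lowest TE share, and 21 with the TE share as a term, when the core median was 0.01. Scaled to total counts alone, 1 of 37 was above 0, while the median of all genes was then -0.07. The 95% intervals of the 31 subunits reached from -0.47 to 0.33 at their widest.

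Older 3TC mice differed from younger mice in 0 of 37 genes by edgeR (0.0119% of all genes and TEs called) and 0 by DESeq2, with 0 of 37 at an unadjusted p under 0.05 (1.72% of all genes and TEs) and 0 of 37 with ranges apart (0.0894%). Fold changes were above 0 in 8 of 14 core and 9 of 17 regulatory subunits (51.3% of all genes), with medians of 0.01 and 0.00. These counts, too, turned on single mice: of the 37 genes, 7 were above 0 without DFO5, 9 without DFO4 and 25 without DMO5. Without DFO4, 4 of 14 core and 4 of 17 regulatory subunits were above 0, with medians of -0.03 for both. PSMB5 (log2 -0.17 ± 0.17), PSMA1 (-0.15 ± 0.16) and PSMD12 (0.13 ± 0.13) had the smallest p among the subunits. PSMA1 had 7.71, 10.3 and 13.4 CPM in older 3TC mice, 6.39, 11.1 and 13.6 in older and 9.37, 11.0 and 15.4 in younger mice.

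**Figure D4:**
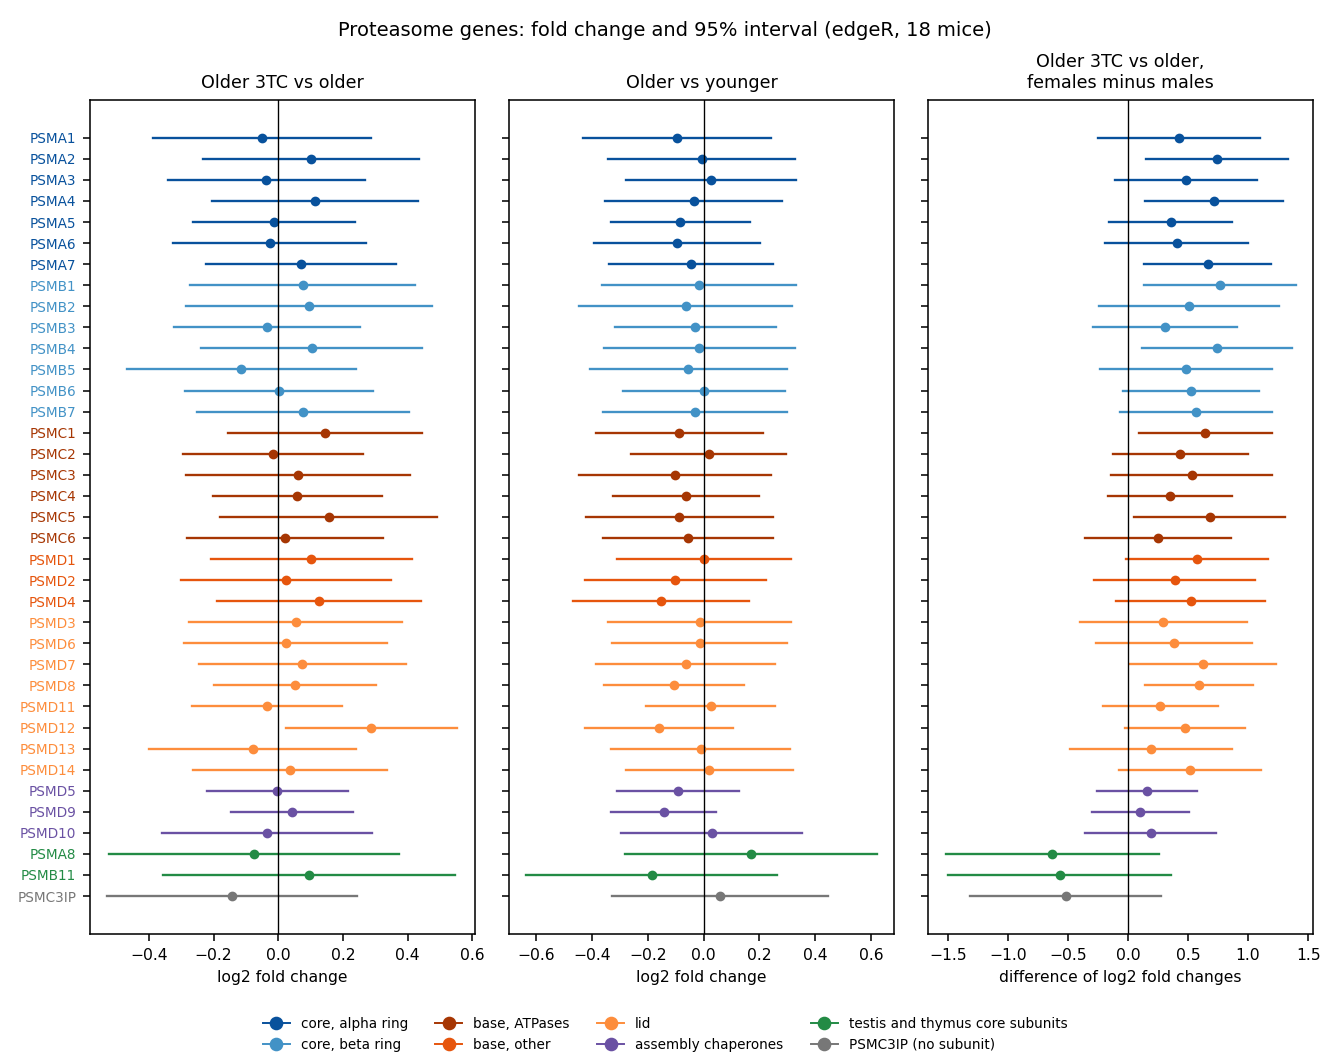
Log2 fold change with its 95% interval for each of the 37 genes, from edgeR, for older 3TC over older mice, older over younger mice, and the difference of the 3TC fold change between females and males. Of the intervals in the first panel only that of PSMD12 (0.02 to 0.55) excludes 0, none does in the second, and in the third all 31 core and regulatory subunits lie above 0. The subunits moved together across mice, so their signs are not independent.

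The fold changes with 3TC were higher in females than in males for every core and regulatory subunit, although no single difference passed the test. In the test of this difference (females minus males), all 14 core subunits (median 0.52 on the log2 scale) and all 17 regulatory subunits (0.48) were above 0, against 53.1% of all genes and a median of 0.04. Because the subunits rose and fell together from mouse to mouse, these signs are not independent of each other. They rest on 3 mice per sex and group. By edgeR, 9 of the 37 genes had an unadjusted p under 0.05 (7.7% of all genes and TEs), but 0 of 37 were called (0% of all genes and TEs called), with a smallest adjusted p of 0.447, and DESeq2 also called 0. The 9 were PSMA2, PSMA4, PSMA7, PSMB1, PSMB4, PSMC1, PSMC5, PSMD7 and PSMD8, with differences of 0.59 to 0.77. PSMD8, a lid subunit, had the smallest p (0.59 ± 0.21, 95% interval 0.14 to 1.04, edgeR's adjusted p = 0.447). PSMA8, PSMB11 and PSMC3IP lay below 0 (-0.63, -0.57 and -0.52). With 1 mouse left out at a time, the number at an unadjusted p under 0.05 lay between 1 (without CMO6) and 16 (without CMO1) and the core median between 0.36 and 0.67, with all 14 core subunits above 0 each time. The regulatory median lay between 0.31 and 0.58, lowest without CMO6, when 16 of 17 regulatory subunits were above 0. Without DFO4 the number at an unadjusted p under 0.05 was 6. The shares of all genes and TEs at that p in the fits with a mouse left out are not given. These counts therefore cannot be read as particular to the proteasome.

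The mean log2 level of the 31 subunits was 4.17 ± 0.14 (SD, n = 3) in older 3TC females and 3.82 ± 0.22 in older 3TC males, 3.87 ± 0.29 in older females and 4.02 ± 0.28 in older males, and 3.93 ± 0.27 in younger females and 4.07 ± 0.26 in younger males. The 3 older 3TC females were all above the 3 older 3TC males, and the sexes overlapped in the other groups. This was not particular to the proteasome. In older 3TC mice the lowest female also stood above the highest male for ribosomal proteins (4.32 and 4.31) and the respiratory chain (3.63 and 3.61). The same held for oligodendrocyte (5.81 and 5.73) and thalamus markers (3.34 and 3.30), but not for hippocampal neuron or choroid plexus markers. TE shares ran the opposite way to the subunits, at 72.9 ± 6.22% in older 3TC females and 80.4 ± 4.08% in older 3TC males, against 79.1 ± 6.22% in older females and 75.5 ± 6.49% in older males. With the TE share as a term beside group and sex, the median differences were 0.13 for the core and 0.07 for the regulatory particle, 10 of 14 and 11 of 17 were above 0, and 1 gene (PSMD8) was at p under 0.05. The share of all genes and TEs at that p in this fit is not given. Some other gene groups stood beside the subunits in the sex difference of the 3TC fold changes. All 75 cytosolic ribosomal proteins (median difference 0.58) and all 59 respiratory chain subunits (0.61) were above 0, as were all 8 oligodendrocyte markers (1.08) and all 10 thalamus markers (1.12). Others did not: 4 of 12 hippocampal neuron markers (-0.12, but 0.17 without DFO4) and 2 of 9 cortex markers (-0.06) were above 0. So were 2 of 5 core assembly chaperones (-0.06) and 0 of 3 immunoproteasome subunits (-0.27). Without DFO4 the thalamus median was 0.06, with 6 of 10 above 0, and the oligodendrocyte median was 0.72, while those of the ribosomal proteins, respiratory chain, core and regulatory subunits were 0.57, 0.53, 0.52 and 0.44. The oligodendrocyte markers averaged 6.30 ± 0.50 in older 3TC females and 5.32 ± 0.37 in older 3TC males, against 5.72 ± 0.33 in older females and 5.73 ± 0.55 in older males, and their part in the result was not tested. The difference between the sexes in the aging comparison was small, with 12 of 31 subunits above 0 (50.5% of all genes), 0 of 37 genes called (0%) and 0 at an unadjusted p under 0.05 (0.191% of all genes and TEs).

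**Figure D5:**
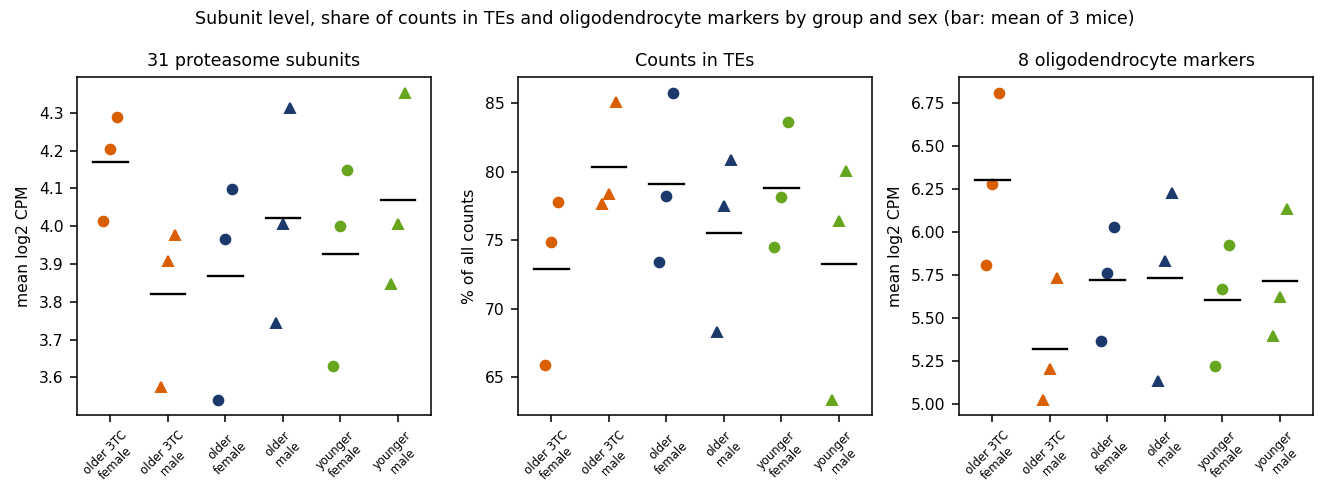
Mean log2 CPM of the 31 subunits, percent of counts in TEs and mean log2 CPM of 8 oligodendrocyte markers in each mouse by group and sex, with a bar for the mean of 3 mice. Older 3TC females average 4.17 and older 3TC males 3.82 for the subunits, with 72.9% and 80.4% of their counts in TEs.

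Between females and males over the 3 groups, 0 of 37 genes were called by edgeR (1.57% of all genes and TEs) and 0 by DESeq2. Fold changes were above 0 in 10 of 14 core and 11 of 17 regulatory subunits (49.5% of all genes), with medians of 0.01 and 0.03. The chaperone PSMD10 (gankyrin), whose gene lies on the X chromosome (chrX:140948429-140956728, minus strand), was the 1 gene of 37 with an unadjusted p under 0.05 (2.84% of all genes and TEs). It had 2.84, 3.41 and 3.64 CPM (lowest, median and highest of 9) in females, against 1.90, 2.57 and 3.37 CPM in males, overlapping ranges in which the lowest female stood above the median male. The log2 fold change was 0.34 ± 0.11 (95% interval 0.11 to 0.56, edgeR's adjusted p = 0.25), and with the TE share as a term it was the 1 gene of 37 called (adjusted p = 0.0403, 2.52% of all genes and TEs called in that fit).

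Of the genes that act with the proteasome, none was called by edgeR in older 3TC against older mice or in older against younger mice. Over all genes, 53.4% lay above 0 with 3TC and 46.4% with age. Such counts turned on single mice for the proteasome genes and were not checked in that way for the lists below. The activators PSME1 to PSME4 and the inhibitor PSMF1 had a median log2 fold change of 0.06 with 3TC (4 of 5 above 0, led by PSMF1 at 0.08 ± 0.07) and -0.01 with age. The 13 measured transcripts of proteins that dock on or feed the proteasome were above 0 in 12 cases with 3TC (median 0.07, with UCHL5, a deubiquitinase of the regulatory particle, at 0.19 ± 0.11) and in 5 with age (-0.03). The 5 core assembly chaperones had medians of -0.04 with 3TC and -0.05 with age. NFE2L1, its relative NFE2L2 and genes of their activation and partners had a median of 0.07 with 3TC (6 of 7 above 0, NFE2L1 itself 0.14 ± 0.18) and 0.01 with age. The 6 ubiquitin and ubiquitin-activating genes had -0.04 and -0.09, and ADRM1, a ubiquitin receptor with another symbol, 0.00 ± 0.10 and -0.06 ± 0.10. The immunoproteasome subunits PSMB8, PSMB9 and PSMB10 averaged 2.57, 2.004 and 4.46 CPM in older 3TC mice, against 2.40, 1.76 and 4.56 CPM in older mice and 2.31, 1.93 and 4.42 CPM in younger mice. As a scale for these values, the 75 ribosomal proteins had medians of -0.03 with 3TC and -0.05 with age, and the 59 respiratory chain subunits 0.03 and -0.07. Markers of other cells and regions also differed in median between older 3TC and older mice: 10 of 10 thalamus markers lay above 0 (0.62), 0 of 10 choroid plexus markers (-0.58) and 0 of 12 hippocampal neuron markers (-0.28), and 0 of these were called. Also above 0, with 0 called, were 9 of 9 cortex markers (0.22) and 8 of 8 oligodendrocyte markers (0.15). The mean cortex level was highest in DMO2 (4.15) and lowest in DFO4 (3.18). Without DFO4, 1 of 8 oligodendrocyte markers was above 0 (-0.09). Without DFO4 the thalamus median was 0.01, with 5 of 10 above 0, the choroid plexus median -0.78 and the hippocampal neuron median -0.18, and that of the respiratory chain was -0.05. Their part in the values of the proteasome genes was not tested.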

How the data were processed

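Gene and TE counts of the hippocampus were used for 18 mice, 6 older 3TC, 6 older and 6 younger. The authors deposited whole-number read counts, not normalized, for 15644 genes and 1146 TEs. Per the paper, reads were trimmed with fastp and aligned with STAR to mm10, with multimapping reads kept for TEs, genes counted by STAR and TEs by TEtranscripts. Versions and the strand setting are not given in the sources used here, and the labels (polyA RNA) and the paper (total RNA, ribosomal RNA removed) differ on the library type. TE counts were the larger part of each library and entered the totals to which CPM were scaled.

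Counts were tested with edgeR 4.0.16 (limma 3.58.1, R 4.3.3): TMM factors, quasi-likelihood test, a filter on the mean count (over 10, which left 16774 features, 15635 of them genes), all 18 mice in one model of group means (15 residual degrees of freedom), Benjamini-Hochberg threshold 0.05. Sex was tested with cell means of group and sex. The 95% intervals are of the model's fold change. Counting error was not given separately. Levels per kb used the union of exons in GENCODE vM21 (GRCm38, the same assembly as mm10), in which 15587 table genes were matched. Read sharing was checked with stretches of 100 bases. Figures used Python 3.11.15 and matplotlib 3.10.9.

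The members and gene lists were chosen with earlier results of these data known. Values per group were given for the proteolytic subunits, PSMD14, up to 2 genes per class and comparison of smallest p, the highest and lowest subunits per length, PSMA8, PSMB11 and PSMC3IP. Genes of the other lists were named by smallest p, up to 2 per list. PSMD8 and PSMD10 were named after their values were seen. Some genes that these rules select are not reported here. Alternatives were DESeq2 1.42.0, other scalings and filters, sex or TE share as terms, 2 groups only, a replicate block and leaving out each mouse. All 45 pairs of mice within groups differed by more than sampling noise, with a chi-square of at least 4.57 times its degrees of freedom. The method was tested on simulated counts.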

Additional observations from a re-analysis of the deposited data

Results flagged for a closer look

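PSMC3IP, the recombination factor without a place in the proteasome, stood apart in 1 younger mouse. Its log2 level was 0.29 in YM1, against 0.96 to 1.27 in the other 5 younger mice, a gap of 0.681 of the group's range, past Dixon's limit for 6 values. YM1 had the lowest share of counts in TEs of all 18 mice (63.4%). Of 120 checks of a gene or level in a group this was the only one past the limit, and chance alone flags about 1 in 20 groups.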

How the results depend on the processing

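No proteasome gene was called between older 3TC and older, older and younger, or older 3TC and younger mice under any of the alternatives run, and none was called in the sex differences. In females against males, 1 gene (PSMD10) was called with the TE share as a term beside group and sex, an alternative chosen after seeing the data, and 0 otherwise. The core minus regulatory level of -0.62 was -0.45 as a difference of medians over subunits, -0.38 with the chaperones counted in the regulatory particle, -0.10 per exon length and -0.0295 per length of the principal transcript, the last chosen after seeing the data. Per length of the principal transcript it was above 0 in 5 of 18 mice, and its size was below its SD over mice (0.0446). That SD is the spread of single mice and does not measure the uncertainty of the mean. The length-based values differ by their division by transcript length. The sex difference of the 3TC fold changes depended on the scaling. Its core and regulatory medians were 0.45 and 0.40 with TMM factors from genes only, when the median of all genes was -0.03. Scaled to total counts alone they were 0.92 and 0.87, when the median of all genes was 0.46. Median fold changes of core and regulatory subunits between the groups kept within the spread between mice. With sex and the label number as a replicate block they were -0.21 and -0.25 with age and 0.11 and 0.13 with 3TC, with 0 genes called. In that fit older and younger mice shared a block only as YM1 with CMO1, YF3 with CFO3 and YF2 with CFO2. Older 3TC and older mice shared one only as DMO1 with CMO1, so these medians rest on few animals. Mice with the same number did not deviate together (r of -0.547 to 0.303), so no pairing was seen. So few pairs cannot decide whether the numbers link animals. The values of the gene lists without DFO4 were also chosen after seeing the data. The limits are the 6 mice per group, the range of TE shares within groups, and the unknown strand setting.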

Other observations

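The share of gene counts taken by the 31 subunits, a measure with no TE counts in its total, was 0.208 to 0.273% in the 18 mice. It was still low in the mice with the highest TE shares of their groups (0.209% in DMO5, 0.208% in CFO2 and 0.208% in YF3). In the mice with the lowest TE shares it was 0.242% (DFO5), 0.258% (CMO6) and 0.256% (YM1), smaller gaps than in CPM. It was highest in DFO4 (0.273%), the older 3TC female with the highest thalamus and oligodendrocyte markers, and lowest in CFO2.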
